A study of Mus musculus with 2 samples.

Results

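The genes described here are 8 genes of cholesterol balance, followed in single cells of YAP/TAZ-depleted mouse cholangiocarcinoma (CCA) with and without anti–PD-1 antibody. They are *Hmgcs1*, *Sqle*, *Insig1* and *Srebf2* on the side of sterol synthesis, and *Abca1*, *Abcg1*, *Mylip* and *Nr1h3* on the side of cholesterol efflux. They were taken by symbol from the 32589 genes of the count matrices, and all 8 were found. The choice did not use their measured values, but it was made with earlier results of these data known. CCA was started by HDTVI (hydrodynamic tail vein injection), which brings plasmids into hepatocytes, here an activated Notch1 receptor (NICD) and a myristoylated AKT kinase. Both groups were shYT animals, in which doxycycline turns on shRNAs that target *Yap1* and *Wwtr1*, the genes of YAP and TAZ, through the reverse transactivator rtTA3 under the ubiquitous CAG promoter, so every cell type could be depleted. The shRNAs were on from day 25 after HDTVI. One group received PBS and the other the anti–PD-1 antibody clone RMP1-14 on days 26, 29 and 32. Livers were collected on day 33. Each group is 1 library of dissociated tumor-bearing liver. The study describes several animals per group, which without hashtag labels cannot be told apart inside a library. The labels do not give their number, their sex or the shRNA line. No library without the knockdown was used here, so the effect of YAP/TAZ depletion was not compared. Because each group is 1 library, no difference was tested, and each value below compares 2 libraries. The 95% intervals (exact Poisson for levels, exact binomial for ratios and shares) cover counting error only.

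Cells make cholesterol from acetyl-CoA through a long enzyme pathway and take it up as low-density lipoprotein (LDL). SREBP2, the product of *Srebf2*, is a transcription factor held in the endoplasmic reticulum by SCAP and the INSIG proteins when sterols are plentiful, and it turns on the synthesis enzymes when they run low. Hmgcs1 makes HMG-CoA early in the pathway, and Sqle oxidizes squalene, a late and controlled step. When sterols accumulate, their oxidized forms activate the liver X receptors, of which LXRα is the product of *Nr1h3*. These receptors turn on *Abca1* and *Abcg1*, the exporters that load cholesterol onto lipoproteins, and *Mylip* (IDOL), a ubiquitin ligase that limits cholesterol uptake. Macrophages that engulf dying cells rely on this export arm, and Kupffer cells, the resident macrophages of the liver, are known for high LXRα.

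Promoters of 4 of the genes, 1 or more from each side, are shown because SREBP and LXR are known to act through short DNA motifs. RefSeq promoters (GRCm38.p6, from 250 bases before the transcript start to 50 after it, written along the gene's own strand) were found for 6 of the 8 genes. *Sqle* and *Abcg1* had no entry. Capitals mark matches, on either strand, to TCACNCCAC (the core of a sterol regulatory element), CCAAT (the box of NF-Y, a partner of SREBP) and AGGTCA (a hexamer that nuclear receptors read). The matched windows lie at chr13:119690101-119690400 for *Hmgcs1* (+ strand), chr5:28071162-28071461 for *Insig1* (+ strand), chr13:45389492-45389791 for *Mylip* (+ strand) and chr4:53159846-53160145 for *Abca1* (− strand).
Hmgcs1: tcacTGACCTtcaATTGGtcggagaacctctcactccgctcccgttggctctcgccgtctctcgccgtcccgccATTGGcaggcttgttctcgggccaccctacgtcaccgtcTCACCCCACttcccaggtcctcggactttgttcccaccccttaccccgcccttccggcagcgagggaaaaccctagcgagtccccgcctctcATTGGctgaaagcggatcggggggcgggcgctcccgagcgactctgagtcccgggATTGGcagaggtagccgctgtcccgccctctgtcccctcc
Insig1: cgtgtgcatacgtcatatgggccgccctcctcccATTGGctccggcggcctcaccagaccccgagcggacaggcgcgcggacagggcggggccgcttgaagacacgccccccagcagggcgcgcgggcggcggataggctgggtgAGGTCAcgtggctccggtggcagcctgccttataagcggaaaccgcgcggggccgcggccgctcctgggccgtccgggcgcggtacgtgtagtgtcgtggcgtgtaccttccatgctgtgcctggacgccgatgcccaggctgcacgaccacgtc
Mylip: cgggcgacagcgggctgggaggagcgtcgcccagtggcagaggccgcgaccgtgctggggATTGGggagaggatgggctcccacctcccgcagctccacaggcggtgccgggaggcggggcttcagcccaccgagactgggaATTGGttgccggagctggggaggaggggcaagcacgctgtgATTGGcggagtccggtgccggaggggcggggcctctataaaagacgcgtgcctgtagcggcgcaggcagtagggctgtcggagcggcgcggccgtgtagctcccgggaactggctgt
Abca1: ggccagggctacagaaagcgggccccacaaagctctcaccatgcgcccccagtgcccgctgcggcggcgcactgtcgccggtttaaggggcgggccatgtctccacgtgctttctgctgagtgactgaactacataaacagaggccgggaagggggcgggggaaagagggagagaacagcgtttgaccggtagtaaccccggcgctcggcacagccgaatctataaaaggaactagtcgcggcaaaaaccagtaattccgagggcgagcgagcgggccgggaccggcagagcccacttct
With the transcript start as position 0, *Hmgcs1* held the sterol regulatory element core at −137, and it was the only one of the 6 genes to hold it. Of all 32851 promoters in the table, 408 (1.24%) held that core. *Hmgcs1* also held 4 NF-Y boxes, *Mylip* held 3, and *Insig1* and *Srebf2* held 1 each, against 37.4% of all promoters with at least 1. The hexamer stood at −246 in *Hmgcs1* and at −105 in *Insig1*, against 16.3% of all promoters. *Abca1* and both *Nr1h3* promoters held none of these exact letters in the window. Sites with other letters were not sought, so no match does not mean that a site for LXR or SREBP is absent. A match describes letters only and says nothing of binding in these cells. In GENCODE vM21 (GRCm38), the gene bodies lie at chr13:119690379-119708260 for *Hmgcs1*, chr15:59315077-59331192 for *Sqle*, chr5:28071363-28078662 for *Insig1* and chr15:82147181-82205379 for *Srebf2*. Those of the efflux side lie at chr4:53030787-53159895 for *Abca1*, chr17:31057675-31117988 for *Abcg1*, chr13:45389742-45412022 for *Mylip* and chr2:91184061-91202834 for *Nr1h3*.

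For PBS there were 19397 cell barcodes with 121713441 UMIs (unique molecular identifiers, which count transcripts), and for anti–PD-1 19451 barcodes with 100807037 UMIs. Cells in which 500 to 5000 genes were detected, and in which mitochondrial UMIs made up no more than 10%, were kept. They numbered 15531 and 16360, with medians of 3159 and 2990 UMIs. Cells were placed in classes by the marker genes in which they had UMIs, and 13 classes with at least 50 cells in each library were compared. Every defining marker was found in its class in both libraries, which the gate itself ensures in part. Macrophages numbered 3245 with PBS and 1486 with anti–PD-1, Kupffer cells 1115 and 2083, T cells 3391 and 3602, and tumor cells 1324 and 785. The last class also takes in biliary epithelial cells (BECs). The libraries shared 219 barcodes, and without them *Abca1* kept the same log2 ratios in macrophages (−0.82) and Kupffer cells (−0.80) as given below. *Xist*, the RNA that silences an X chromosome in female cells, had 18452 UMIs with PBS and 11 with anti–PD-1, and 4 Y-linked genes had 3113 and 15323. The libraries therefore differ in the sex of their cells, and treatment and sex cannot be told apart over whole libraries.

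Levels are given as CPM, the UMIs of a gene per 1e6 UMIs of its class and library. Macrophages and Kupffer cells together held 46.0% of the UMIs of all genes with PBS and 34.8% with anti–PD-1. They held 81.7% of all *Abca1* UMIs with PBS and 71.9% with anti–PD-1, 72.1% and 64.3% of *Abcg1* UMIs, and 62.2% and 53.0% of *Mylip* UMIs. For *Nr1h3* these shares were 91.0% and 87.7%. The excess over all genes was thus large for *Nr1h3* and *Abca1* and modest for *Mylip*. In PBS, *Abca1* stood highest in Kupffer cells at 418 CPM (405 to 431), followed by macrophages at 241 CPM (235 to 247), endothelial cells at 176 CPM (160 to 194) and B cells at 109 CPM (95.6 to 123). None of these 4 intervals overlapped. In the anti–PD-1 library, Kupffer cells still led at 237 CPM (230 to 244), but endothelial cells at 137 CPM (104 to 176) and macrophages at 134 CPM (127 to 142) no longer differed beyond counting error. *Nr1h3* had the steepest order, with 367 CPM (355 to 379) in PBS Kupffer cells against 38.6 CPM (36.3 to 41.1) in macrophages and less in every other class. *Mylip* was highest in endothelial cells, at 200 CPM (183 to 219) and 211 CPM (170 to 259), about 2 times the level of Kupffer cells. *Abcg1* was highest in Kupffer cells, at 149 CPM (142 to 157) and 129 CPM (124 to 134), and endothelial cells and macrophages did not differ from each other in either library.

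The synthesis genes followed another order. *Hmgcs1* was highest in tumor cells and BECs, at 68.0 CPM (61.9 to 74.4) in PBS and 55.3 CPM (47.2 to 64.3) with anti–PD-1, but each neighbouring pair of the 13 classes overlapped. *Sqle* was also highest there, at 58.7 CPM (53.1 to 64.7) and 46.0 CPM (38.7 to 54.3), and there it stood clear of the next class in both libraries. This class held 36.8% of all *Sqle* UMIs in PBS and 17.9% with anti–PD-1, beside 8.71% and 3.89% of the UMIs of all genes, so both shares differed between the libraries by a similar factor. Kupffer cells had the lowest *Sqle* of all classes with PBS, at 4.04 CPM (2.90 to 5.49), while being the highest for *Abca1*. *Srebf2* was led by cDC2, cDC1 and B cells, at 120 CPM (104 to 138), 111 CPM (90.7 to 133) and 96.9 CPM (84.4 to 111) in PBS, with T cells clearly below at 56.9 CPM (52.6 to 61.5). *Insig1* ran from 8.54 CPM in NK cells to 25.1 CPM in monocytes with PBS, where no neighbouring classes differed beyond counting error. With anti–PD-1 it ran from 6.95 CPM in endothelial cells to 48.2 CPM in monocytes, and 11 of 12 neighbouring pairs overlapped.

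**Figure D1:**
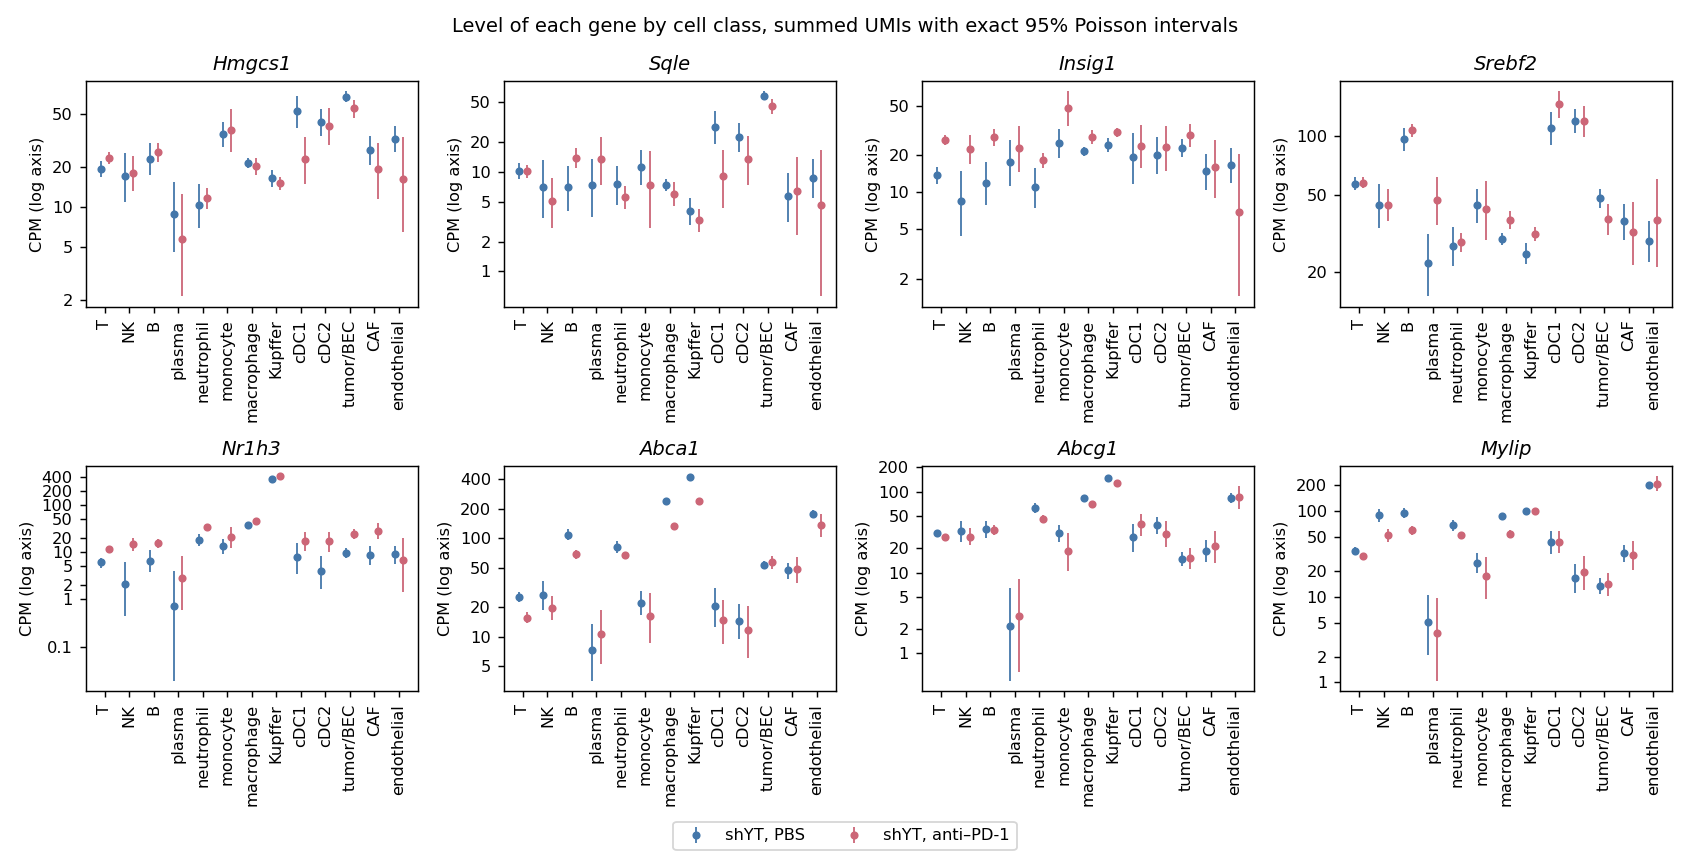
Level of the 8 genes in 13 cell classes (x axis) in CPM on a log axis, with blue points for the PBS library, red points for the anti–PD-1 library and bars for exact 95% Poisson intervals of 1 library each. *Abca1* in macrophages lies at 241 CPM in PBS and 134 CPM with anti–PD-1, *Nr1h3* is highest in Kupffer cells in both libraries, and *Sqle* is highest in tumor cells and BECs.

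*Nr1h3*, the LXRα receptor gene, was at 367 CPM in PBS Kupffer cells and 410 CPM (401 to 419) in anti–PD-1 Kupffer cells, on 3719 and 7399 UMIs. The log2 ratio of anti–PD-1 over PBS, with 5 CPM added to both, was 0.16 (0.10 to 0.21). In macrophages the levels were 38.6 and 45.7 CPM, a log2 ratio of 0.22 (0.07 to 0.37). Inside the PBS library, Kupffer cells with *Xist* and with Y-linked UMIs had *Nr1h3* at 342 and 456 CPM, a log2 ratio of 0.41 (0.28 to 0.53), which is larger than the difference between the libraries. Among cells that had Y-linked UMIs but none of *Xist*, the ratio between the libraries was −0.13 in Kupffer cells and 0.02 in macrophages. A higher level with anti–PD-1 was thus not seen in the phagocytes, where most of the gene was found, once the cells were matched in this way. The ratio was larger in classes where it is scarce, with 9.73 CPM (7.54 to 12.4) and 24.8 CPM (19.5 to 31.1) in tumor cells and BECs, 8.68 and 28.9 CPM in CAFs (cancer-associated fibroblasts), and 2.14 and 14.9 CPM in NK cells. The NK value in PBS rests on 3 UMIs. For *Nr1h3*, 9 of 13 classes had an interval above 0 and 0 had one below.

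RNA of Kupffer cells moved with these low levels. *Clec4f*, a lectin gene of Kupffer cells, was at 79.4 and 195 CPM in tumor cells and BECs, 47.1 and 134 CPM in CAFs, and 42.7 and 117 CPM in NK cells. All 5 Kupffer cell markers were higher in the anti–PD-1 library in each of these 3 classes, none was at 0, and their sum went from 162 to 349 CPM in tumor cells and BECs. At the ratio of *Nr1h3* to *Clec4f* in Kupffer cells, such RNA would hold 63.2% and 72.5% of the *Nr1h3* UMIs in tumor cells and BECs. In CAFs it would hold 42.0% and 42.8%, leaving 5.03 and 16.5 CPM beyond it, and in NK cells 155% and 72.7%, leaving none and 4.06 CPM. In T cells it would hold 94.5% and 86.7%, and in B cells 117% and 97.5%. The T cell levels beyond the ratio were 0.335 and 1.56 CPM. Neutrophils had *Nr1h3* at 18.6 and 35.1 CPM (0.77, 0.42 to 1.11), on 52 and 373 UMIs. There such RNA would hold 73.2% and 57.3%, leaving 4.97 and 15.0 CPM. This reading assumes 1 fixed ratio in all classes, and the source of the UMIs was not tested. In macrophages such RNA would hold 3.74% and 16.8%, leaving 975 of 1013 and 340 of 409 UMIs, or 37.2 and 38.0 CPM. Cells with enough Kupffer cell markers, *Clec4f* among them, to meet that class's minimum were kept out of the macrophage class. The gate thus lowers *Clec4f* in macrophages, so these shares cannot show how much of their *Nr1h3* came from Kupffer cell RNA. In monocytes the levels were 13.4 and 21.0 CPM (log2 ratio 0.50, −0.22 to 1.2), and endothelial cells were at 9.20 and 6.95 CPM, the only class with a lower level in the anti–PD-1 library.

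*Abca1*, which exports cholesterol to apolipoproteins, was lower in the anti–PD-1 library in the phagocytes. Macrophages had 6330 UMIs in PBS and 1201 with anti–PD-1, or 241 and 134 CPM, a log2 ratio of −0.82 (−0.91 to −0.74). Kupffer cells had 4237 and 4280 UMIs, or 418 and 237 CPM, a log2 ratio of −0.80 (−0.87 to −0.74). The ratio was thus alike in a class with fewer cells and in one with more cells in the anti–PD-1 library. B cells were at 109 and 68.3 CPM, a log2 ratio of −0.63 (−0.86 to −0.41). T cells were at 25.2 and 15.6 CPM (−0.55, −0.75 to −0.36), and CD8-gated T cells, those with a *Cd8a* or *Cd8b1* UMI, at 26.5 and 14.3 CPM (−0.71, −1.03 to −0.39). T cells without CD8 were at 24.5 and 16.9 CPM (−0.43, −0.69 to −0.17). Neutrophils were at 81.7 and 66.8 CPM, a smaller ratio of −0.27 (−0.48 to −0.06). In tumor cells and BECs (53.4 and 57.3 CPM) and in CAFs (47.1 and 48.1 CPM) the intervals of the ratio, −0.16 to 0.33 and −0.45 to 0.49, spanned 0. In the other 6 classes they spanned 0 as well. Other gene lists differed in the same phagocytes. The dissociation stress list of 14 early response and heat shock genes had 14 of 14 higher with anti–PD-1 in both macrophages and Kupffer cells, with medians of 1.18 and 1.2. The 6 neutrophil markers summed to 346 and 806 CPM in macrophages (6 of 6 higher) and to 205 and 641 CPM in Kupffer cells (5 of 6 higher), and none was at 0. The macrophages' own 6 markers summed to 18900 and 15800 CPM, with 0 of 6 higher. The part of these lists in the *Abca1* values and in those of the other efflux genes was not tested.

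Macrophage RNA in other classes bears on the low *Abca1* values. The C1q genes, which macrophages and Kupffer cells express strongly, were at 1140 CPM in PBS B cells and 1350 CPM in anti–PD-1 B cells. At the ratio of *Abca1* to C1q in macrophages and Kupffer cells, such RNA would give 17.7% and 23.8% of the *Abca1* in B cells, leaving 89.6 and 52.1 CPM beyond it. In endothelial cells it would give 5.32% and 10.6%. In T cells it would give 45.7% and 64.8%, and in neutrophils 60.6% and 89.8%, where C1q was at 2940 and 4990 CPM. The levels beyond it were 13.7 and 5.48 CPM in T cells and 32.2 and 6.79 CPM in neutrophils. At this assumed ratio, *Abca1* was well above such RNA in B cells and endothelial cells, and much closer to it in T cells and neutrophils. This reading, like those from C1q for other genes below, assumes that the ratio is fixed in all classes. The source of the UMIs was not tested.

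*Abcg1*, which passes cholesterol on to high-density lipoproteins, differed less. Macrophages were at 82.9 CPM (79.4 to 86.5) and 70.9 CPM (65.5 to 76.6), giving a log2 ratio of −0.21 (−0.33 to −0.09). Kupffer cells were at 149 and 129 CPM (−0.20, −0.29 to −0.11), and neutrophils at 63.1 and 46.6 CPM (−0.40, −0.63 to −0.17). C1q-linked RNA would hold 27.4% and 69.6% of the neutrophil UMIs, leaving 45.9 and 14.2 CPM. Both phagocyte ratios lie near the median of all genes in those classes, which was −0.10 and −0.11, so *Abcg1* differed from it by little. In the other 10 classes the interval spanned 0, from −0.60 in monocytes to 0.46 in cDC1.

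*Mylip*, the ubiquitin ligase gene, separated macrophages from Kupffer cells. Macrophages were at 87.7 CPM (84.1 to 91.3) in PBS and 54.8 CPM (50 to 59.8) with anti–PD-1, a log2 ratio of −0.63 (−0.76 to −0.50). Kupffer cells were at 99.6 CPM in both libraries (93.6 to 106 and 95 to 104), and the interval of their ratio ran from −0.11 to 0.11. *Abca1*, by contrast, was lower in both classes. NK cells were at 89.7 and 52.2 CPM (−0.73, −1.06 to −0.39) and B cells at 94.6 and 59.6 CPM (−0.63, −0.86 to −0.39). In these lymphocytes, C1q-linked RNA would give at most 11.4% of the *Mylip* UMIs. T cells were at 34.7 and 29.9 CPM (−0.19, −0.36 to −0.02), with CD8-gated cells at 34.3 and 24.9 CPM and T cells without CD8 at 34.9 CPM in both libraries. Endothelial cells, where the gene was highest, had a ratio of 0.07 (−0.26 to 0.39).

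**Figure D2:**
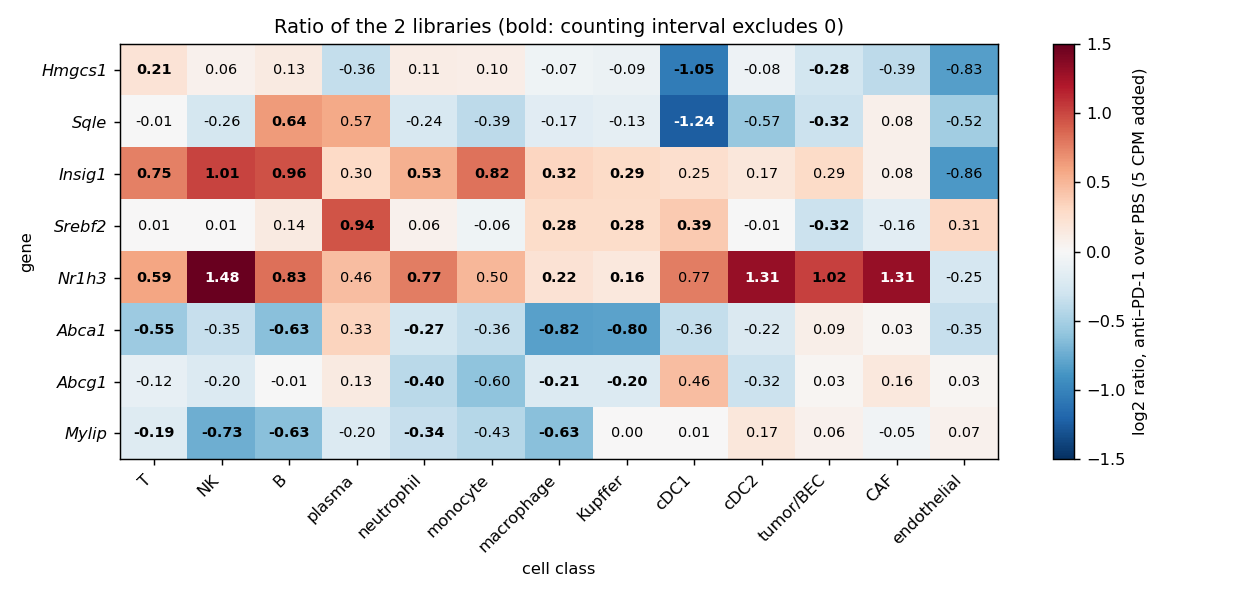
Log2 ratio of the anti–PD-1 over the PBS library for the 8 genes (rows) in 13 cell classes (columns), after adding 5 CPM, with red for higher and blue for lower in the anti–PD-1 library and bold figures where the counting interval excludes 0. *Abca1* is lowest in macrophages (−0.82) and Kupffer cells (−0.80), *Insig1* is highest in NK cells (1.01), and *Hmgcs1* and *Sqle* are lowest in cDC1 (−1.05 and −1.24), where 1 PBS cell holds 22 of 52 *Hmgcs1* UMIs.

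*Insig1*, whose protein holds SREBP back when sterols are plentiful, was higher in the anti–PD-1 library in lymphocytes and myeloid cells. T cells were at 13.8 CPM (11.7 to 16.1) in PBS and 26.5 CPM (24.1 to 29.2) with anti–PD-1, a log2 ratio of 0.75 (0.54 to 0.96). NK cells were at 8.54 and 22.4 CPM (1.01, 0.36 to 1.62), B cells at 12.0 and 28.0 CPM (0.96, 0.50 to 1.40), and monocytes at 25.1 and 48.2 CPM (0.82, 0.28 to 1.36). T cells without CD8 were at 14.7 and 31.9 CPM (0.90, 0.64 to 1.16) and CD8-gated T cells at 11.8 and 21.2 CPM (0.64, 0.28 to 1), with overlapping intervals. The ratio was smaller in neutrophils (0.53), macrophages (0.32) and Kupffer cells (0.29), whose intervals also excluded 0. In all, 7 of 13 classes had an interval above 0 and none had one below. At the ratio of *Insig1* to C1q in macrophages and Kupffer cells, their RNA would hold 34.3% and 48.4% of the *Insig1* UMIs in neutrophils, leaving 7.26 and 9.43 CPM. In T cells it would hold 6.42% and 5.59%, leaving 12.9 and 25.0 CPM, and in B cells 12.3% and 8.56%, leaving 10.5 and 25.6 CPM. Endothelial cells were at 16.7 and 6.95 CPM, on 3 UMIs in the anti–PD-1 library, with an interval from −1.82 to 0.29.

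The early response and heat shock genes of the dissociation stress list, which tissue digestion can induce, were also higher in the anti–PD-1 library in the same classes. Of the 14 genes, 14 were higher in T cells, 13 in NK cells, 13 in B cells and 11 in monocytes, with median log2 ratios of 0.67, 0.65, 0.64 and 0.82. In macrophages, Kupffer cells and neutrophils, 14, 14 and 11 were higher, with medians of 1.18, 1.2 and 0.52, beside *Insig1* ratios of 0.32, 0.29 and 0.53. The list also stood at 2.06 in CAFs and 1.67 in tumor cells and BECs, where *Insig1* had ratios of 0.08 (−0.62 to 0.78) and 0.29 (−0.04 to 0.61). The part of this list in the *Insig1* values was not tested.

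*Srebf2*, the gene of SREBP2 itself, was nearly level in lymphocytes. T cells were at 56.9 and 57.5 CPM, with a ratio interval from −0.12 to 0.15, NK cells at 44.1 and 44.3 CPM, and B cells at 96.9 and 107 CPM (0.14, −0.08 to 0.36). Macrophages were at 29.7 and 37.2 CPM (0.28, 0.12 to 0.45) and Kupffer cells at 24.8 and 31.3 CPM (0.28, 0.10 to 0.47). The macrophage difference was seen in the whole class only. Macrophages with a UMI of *Trem2*, a receptor gene of lipid-handling macrophages, had a ratio of 0.06 (−0.16 to 0.28), and those without had −0.14 (−0.42 to 0.15). cDC1 were at 111 and 147 CPM (0.39, 0.05 to 0.74). Plasma cells, with 91 and 55 cells, were at 22.1 and 46.9 CPM (0.94, 0.35 to 1.52). After thinning, 3.30% and 3.64% of them (3 and 2 cells) had a *Srebf2* UMI, beside 27.5% and 45.5% without thinning. In this class 14 of 14 stress genes were higher (median 1.12), the 6 neutrophil markers summed to 62.5 and 277 CPM (6 of 6 higher, none at 0), *Jchain* was at 36900 and 22800 CPM, and the median of all genes was 0.17. The part of these in the *Srebf2* value was not tested. In tumor cells and BECs the order was the other way, at 47.9 CPM (42.9 to 53.4) and 37.4 CPM (30.8 to 45.0), a ratio of −0.32 (−0.60 to −0.04).

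*Hmgcs1* and *Sqle*, the enzyme genes, had their lowest ratios in cDC1, the dendritic cells that present antigen to CD8 T cells, but few cells carried these values. *Hmgcs1* was at 52.7 CPM (39.4 to 69.1) in PBS cDC1 and 22.9 CPM (14.8 to 33.8) with anti–PD-1, on 52 and 25 UMIs, a log2 ratio of −1.05 (−1.67 to −0.43). *Sqle* was at 28.4 and 9.16 CPM, on 28 and 10 UMIs, a ratio of −1.24 (−1.99 to −0.43). The classes hold only 152 and 106 cells. A single PBS cell held 22 of the 52 *Hmgcs1* UMIs and 1 cell held 9 of the 28 *Sqle* UMIs, against at most 3 and 2 in any anti–PD-1 cell. Cells with an *Hmgcs1* UMI were 19 of 152 (12.5%) and 22 of 106 (20.8%), the opposite order to the CPM, and those with a *Sqle* UMI were 14 (9.21%) and 9 (8.49%). After thinning to 1000 UMIs per cell the *Hmgcs1* shares were 2.74% (0.751 to 6.87) and 1.92% (0.234 to 6.77). No lower level in the typical cDC1 can be read from these data. When 1 marker more was required of a cDC1 cell, the ratios were −0.24 for *Hmgcs1* and −0.64 for *Sqle*, so the size of both depends on the gate. The 6 macrophage markers summed to 713 CPM in PBS cDC1 and 1380 CPM in anti–PD-1 cDC1, 6 of 6 were higher there, and none was at 0. Of the 14 dissociation stress genes, 13 were higher, with a median of 1.05. The part of both lists in these values was not tested. In cDC2, *Hmgcs1* was at 43.3 and 40.8 CPM and *Sqle* at 22.5 and 13.6 CPM, with intervals that spanned 0.

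In tumor cells and BECs both enzymes were somewhat lower in the anti–PD-1 library, with log2 ratios of −0.28 (−0.52 to −0.04) for *Hmgcs1* and −0.32 (−0.58 to −0.06) for *Sqle*. Markers of immune cells were higher in that class there, with the 6 macrophage markers at 1350 and 1990 CPM and the 6 neutrophil markers at 176 and 721 CPM, all higher and none at 0. Their part in these values was not tested. The *Hmgcs1* ratio was −0.02 with 200 or more detected genes and 0.33 among cells that had Y-linked UMIs but none of *Xist*, so its direction was not stable. T cells were at 19.4 CPM (16.9 to 22.2) and 23.3 CPM (21.0 to 25.8) for *Hmgcs1*, a ratio of 0.21 (0.01 to 0.41), and at 10.2 CPM in both libraries for *Sqle*. CD8-gated T cells were at 17.2 and 24.2 CPM for *Hmgcs1* (0.40, 0.07 to 0.73). T cells without CD8 were at 20.6 and 22.4 CPM (0.10, −0.16 to 0.36), and these intervals overlapped. After thinning, 2.07% (1.61 to 2.61) and 2.01% (1.57 to 2.52) of all T cells had an *Hmgcs1* UMI, beside 5.19% and 8.58% without thinning. In B cells *Sqle* was at 7.11 and 13.9 CPM (0.64, 0.12 to 1.13), on 16 and 76 UMIs. After thinning, 0.744% (0.300 to 1.53) and 1.43% (0.921 to 2.13) of B cells had a *Sqle* UMI, with overlapping intervals. In macrophages and Kupffer cells as whole classes neither enzyme differed beyond counting error. In macrophages without a *Trem2* UMI, both were lower with anti–PD-1, at −0.51 (−0.90 to −0.12) for *Hmgcs1* and −0.54 (−1.02 to −0.04) for *Sqle*, on 93 and 67 and on 46 and 30 UMIs.

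A fixed limit of 2-fold, on the scale with 5 CPM added, was used to name the larger differences among genes with a mean of at least 10 CPM. It was passed by 2 of 8 genes in cDC1 (*Hmgcs1* and *Sqle*, both lower, with the few cells described above), against 7.68% of all 8266 genes in that class. *Nr1h3* passed it, in the higher direction, as 1 of 8 genes in tumor cells and BECs (5.19% of all genes), 1 of 8 in cDC2 (6.8%) and 1 of 7 in CAFs (5.73%). The calls depend on the settings. *Nr1h3* in tumor cells and BECs was below the limit with mitochondrial UMIs up to 20% (0.84), with 200 or more detected genes (0.91) and among cells that had Y-linked UMIs but none of *Xist* (0.80), and in CAFs with 200 or more detected genes (0.89). The cDC2 call rests on 7 and 18 UMIs, of which 1 anti–PD-1 cell held 9, and *Clec4f* was at 24.3 and 75.8 CPM in that class. *Insig1* was the 1 of 6 genes to pass it in NK cells (4.57%), with 0.94, 0.89 and 0.98 under 3 of the alternatives and 0.23 among the cells with Y-linked UMIs. *Nr1h3* in NK cells had a larger ratio but a mean below 10 CPM. None passed it among 7 genes in T cells (2.56%), 8 in B cells (3.11%), 3 in plasma cells (7.36%), 7 in neutrophils (6.55%), 7 in monocytes (7.01%), 7 in macrophages (4.83%), 7 in Kupffer cells (2.98%) and 6 in endothelial cells (9.45%). The differences of *Abca1* in macrophages and Kupffer cells, at 1.77-fold and 1.75-fold, lie inside this limit.

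The wider pathways were read from lists of 20 sterol synthesis enzymes, 12 genes of sterol sensing and uptake and 14 of efflux and the LXR pathway. Further lists held 7 genes of sterol storage and oxysterols and 6 of fatty acid synthesis. The lists take in the 8 genes themselves. *Hmgcs1* and *Sqle* are in the synthesis list and *Insig1* and *Srebf2* in that of sensing and uptake. *Abca1*, *Abcg1*, *Mylip* and *Nr1h3* are in the efflux list. The counts and medians below therefore repeat their values in part. In tumor cells and BECs, 17 of 19 measured synthesis enzymes were lower with anti–PD-1, and their median log2 ratio was −0.32 beside −0.05 for all genes. The macrophage markers summed to 1350 and 1990 CPM in this class and the neutrophil markers to 176 and 721 CPM. Their part in the list values was not tested, and the direction of *Hmgcs1* in this class was not stable, as described above. *Hsd17b7*, an enzyme of late sterol synthesis, had 141 and 12 UMIs there, or 20.5 and 3.97 CPM (−1.51, −1.89 to −1.05). *Insig2*, the other INSIG gene, was at 64.0 and 42.0 CPM, and the fatty acid synthesis genes were lower for 5 of 6, with *Fasn* at 115 and 85.4 CPM. In cDC1, 10 of 13 synthesis enzymes were lower, with a median of −0.39 beside −0.07 for all genes. *Idi1* and *Msmo1*, seen once the values were known, were lower by more than 2-fold, at 65.9 and 23.8 CPM and at 35.5 and 11.0 CPM, as were 326 of all 8266 genes there. A single PBS cell held 17 of the 65 *Idi1* UMIs, and the limits given for *Hmgcs1* and *Sqle* in cDC1 hold for this list. In T cells the synthesis enzymes divided evenly, with 8 higher and 7 lower and a median of 0.01. *Stard4*, a sterol carrier gene, was at 25.4 and 52.6 CPM in T cells (0.92, 0.75 to 1.09), beside *Insig1*, and at 26.6 and 44.7 CPM in tumor cells and BECs. *Mvd*, a mevalonate pathway enzyme, was at 21.7 and 13.1 CPM in T cells, and *Mbtps2*, a protease that releases SREBP, at 15.1 and 8.41 CPM. The sensing and uptake list had medians of −0.10 in T cells, −0.13 in macrophages and −0.11 in tumor cells and BECs, close to all genes.

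In macrophages, 11 of 14 efflux and LXR genes were lower with anti–PD-1, and their median log2 ratio was −0.47 beside −0.10 for all genes. The makeup of this class differed, with a *Trem2* UMI in 2583 of 3245 cells with PBS and 650 of 1486 with anti–PD-1. Apart from the 8 genes, the list genes were not divided by *Trem2*, so the part of this makeup in their values was not tested. *Apoe*, the gene of an apolipoprotein that accepts exported cholesterol, was at 49820 and 28440 CPM (−0.81, −0.81 to −0.80). *Rxra*, the partner receptor of LXR, was at 48.9 and 28.7 CPM, and *Lpcat3*, a phospholipid enzyme and LXR target, at 45.2 and 30.7 CPM. *Apoc1* went against them, at 68.6 and 124 CPM (0.80, 0.70 to 0.91). In Kupffer cells *Apoc1* was far higher, at 1796 and 2184 CPM. The 5 Kupffer cell markers summed to 60.9 and 158 CPM in macrophages, with 4 of 5 higher. The part of Kupffer cell RNA in the macrophage *Apoc1* value was not tested. Of the sensing and uptake genes, 6 of 11 measured were lower, among them *Lipa*, the lysosomal lipase, at 379 and 190 CPM (−0.98, −1.05 to −0.91). Of the storage and oxysterol genes, 5 of 6 measured were lower. *Nceh1*, a cholesteryl ester hydrolase, was at 146 and 73.9 CPM and *Soat1*, which makes those esters, at 151 and 105 CPM. *Ch25h*, which makes an oxysterol, was higher at 19.7 and 35.9 CPM. Of the 13 synthesis enzymes measured, 8 were higher and 5 lower, with a median of 0.13. *Fdps*, which makes farnesyl diphosphate, was at 24.6 and 35.5 CPM and *Msmo1* at 23.4 and 18.1 CPM. In Kupffer cells, 12 of 14 efflux and LXR genes were lower, with a median of −0.20 beside −0.11. In T cells 11 of 13 were lower, with a median of −0.19 beside −0.13, close to all genes. The oxysterol receptor gene *Gpr183* was at 60.8 and 106 CPM in T cells, and *Scd2*, a fatty acid desaturase, at 51.7 and 27.3 CPM. The list of storage and oxysterol genes had medians of −0.35 in macrophages, 0.05 in T cells and 0.31 in tumor cells and BECs, and that of fatty acid synthesis had medians of 0.07, −0.18 and −0.18.

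**Figure D3:**
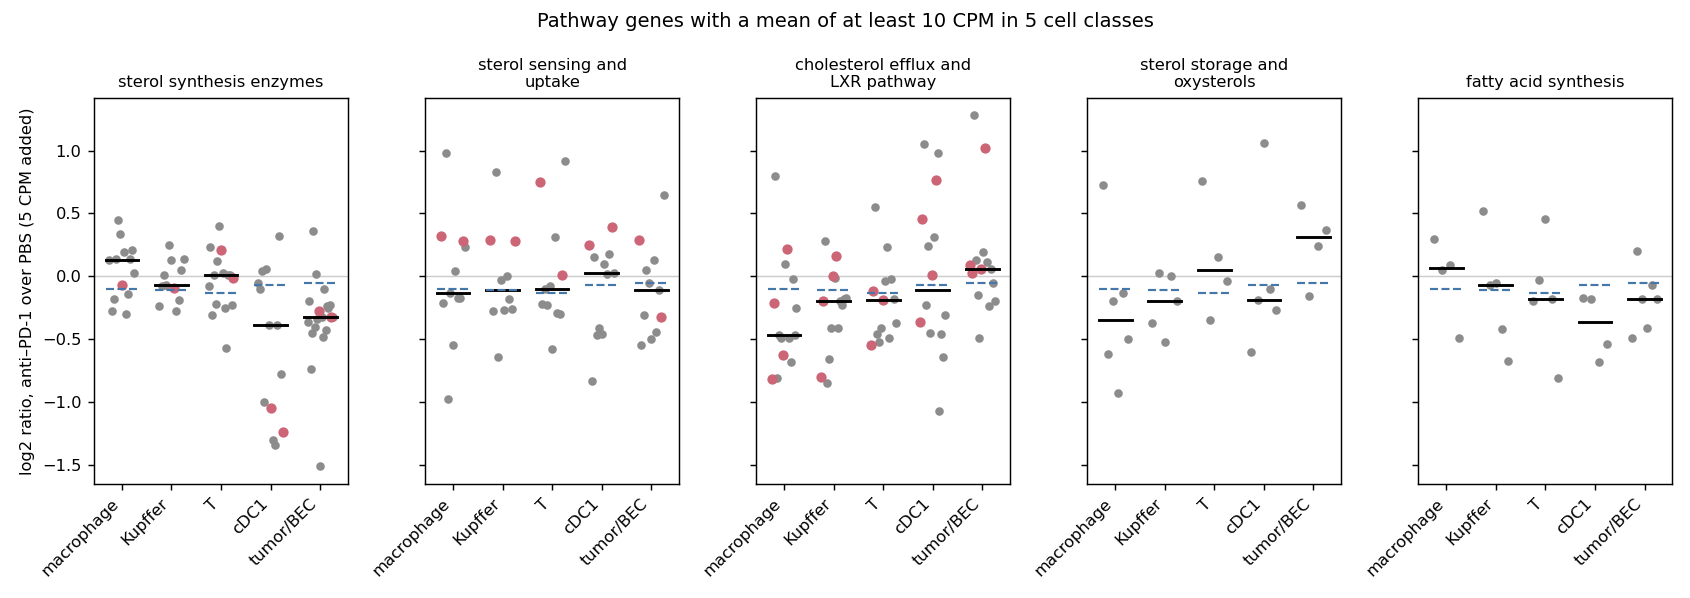
Log2 ratio (y axis, anti–PD-1 over PBS, 5 CPM added) of single genes of 5 pathway lists in macrophages, Kupffer cells, T cells, cDC1 and tumor cells with BECs, with red points for the 8 genes described here, gray points for other genes, black lines for the list median and dashed blue lines for the median of all genes. The synthesis enzymes lie mostly below 0 in tumor cells and BECs (median −0.32), and the efflux genes mostly below 0 in macrophages (median −0.47).

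Because the PBS library held cells with *Xist* UMIs and cells with Y-linked UMIs, the 8 genes could be compared inside that library, where no cell had seen the antibody. In macrophages, 1881 cells with *Xist* and 336 cells with Y-linked UMIs had *Abca1* at 252 and 235 CPM, a log2 ratio of −0.10 (−0.21 to 0.01). In Kupffer cells they had 422 and 398 CPM (−0.09, −0.21 to 0.04). Across the 8 genes the median absolute log2 ratio inside the PBS library was 0.11 in macrophages and 0.14 in Kupffer cells, beside 0.25 and 0.18 between the libraries. *Mylip* in macrophages was at 89.4 and 87.7 CPM. For *Abca1* and *Mylip* in macrophages, the difference between libraries was therefore larger than that inside the PBS library. The contrast inside the PBS library is one of sex and of different animals, and both sides share 1 library. It holds no differences that arise between libraries, so it cannot show how far 2 libraries without the antibody would differ. In T cells the median was 0.26 inside the PBS library beside 0.20 between the libraries, and 3 of 8 genes had the larger ratio between the libraries. T cells with Y-linked UMIs had only 16, 8, 11 and 2 UMIs of *Hmgcs1*, *Sqle*, *Insig1* and *Nr1h3*. In B cells the medians were 0.14 and 0.63, with 5 of 8 genes larger between the libraries. There *Sqle*, *Nr1h3* and *Insig1* had 0, 1 and 3 such UMIs. In tumor cells and BECs the medians were 0.18 and 0.29, with 3 of 8 genes larger. *Abca1* in T cells was at 25.1 and 25.4 CPM inside the PBS library (0.02, −0.50 to 0.51), and *Insig1* at 12.1 and 9.63 CPM (−0.22, −0.86 to 0.44). In NK cells and neutrophils the medians were 0.65 and 0.52 inside the PBS library beside 0.30 and 0.31 between the libraries, but several of these genes had only 0 to 2 UMIs among the cells with Y-linked UMIs. *Nr1h3* in neutrophils was at 21.9 and 86.1 CPM inside the PBS library (1.76, 0.86 to 2.63), on 16 and 21 UMIs. *Abca1* in tumor cells and BECs was at 64.2 and 33.1 CPM (−0.86, −1.46 to −0.29).

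When both libraries were limited to cells that had Y-linked UMIs but none of *Xist*, *Abca1* in macrophages had a log2 ratio of −0.70. It came from 336 PBS and 681 anti–PD-1 cells. *Insig1* in T cells had a ratio of 1.1, on 11 UMIs in PBS. *Nr1h3* in macrophages was at 0.02 under this limit and in neutrophils at −0.95, against 0.77 in neutrophils over whole libraries. The neutrophil value under this limit rests on 86 PBS cells with 21 UMIs. *Insig1* in NK cells was at 0.23, from 71 PBS cells.

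**Figure D4:**
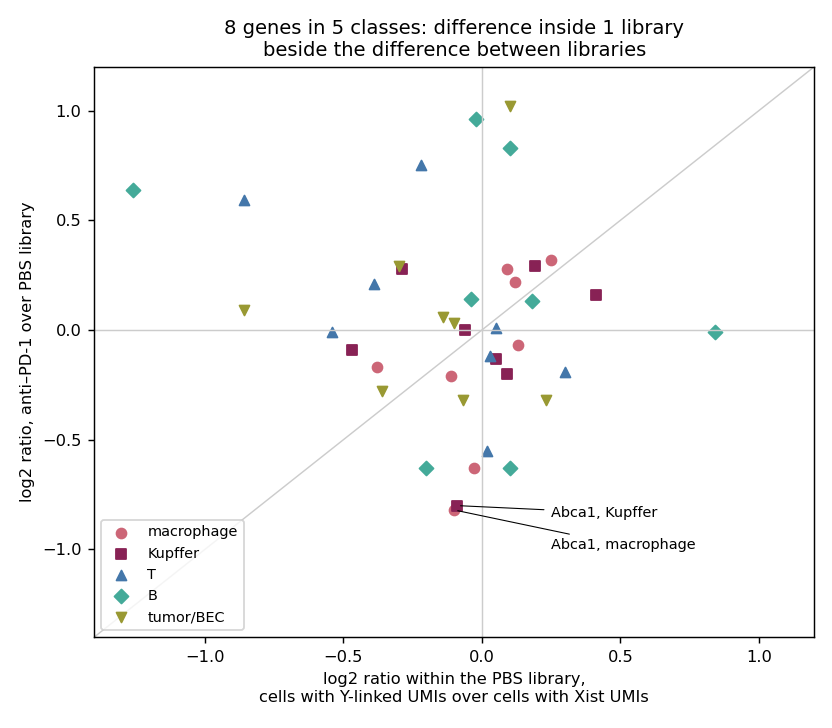
Each point is 1 of the 8 genes in 1 of 5 cell classes, with the log2 ratio of cells with Y-linked over cells with *Xist* UMIs inside the PBS library on the x axis and the log2 ratio of the anti–PD-1 over the PBS library on the y axis, and a gray diagonal where both are equal. *Abca1* in macrophages (−0.10 and −0.82) and in Kupffer cells (−0.09 and −0.80) lies far below the diagonal. The x axis compares cells of different sex in the same library and does not cover differences between libraries.

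The makeup of the macrophage class differed between the 2 libraries. Macrophages with a *Trem2* UMI numbered 2583 of 3245 in PBS and 650 of 1486 with anti–PD-1, a division chosen after seeing the data. In those with a *Trem2* UMI, *Abca1* was at 256 CPM (250 to 263) and 172 CPM (161 to 183), giving a log2 ratio of −0.56 (−0.66 to −0.47). In those without, it was at 117 CPM (105 to 130) and 63.7 CPM (55.1 to 73.2), a ratio of −0.83 (−1.07 to −0.58). *Abca1* was thus lower in the anti–PD-1 library in both divisions and higher in cells with *Trem2* in both libraries. *Mylip* had ratios of −0.68 (−0.84 to −0.52) with *Trem2* and −0.23 (−0.52 to 0.05) without. *Insig1* was at 20.8 and 30.2 CPM with *Trem2* and at 27.5 and 24.5 CPM without, where the interval spanned 0. A deeper cell more easily has a *Trem2* UMI, so the division also follows depth.

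To see how many cells carried the transcripts at equal depth, each cell was thinned to 1000 UMIs. Of macrophages, 19.7% (18.3 to 21.1) of 3140 in PBS and 9.03% (7.50 to 10.7) of 1263 with anti–PD-1 had an *Abca1* UMI, and 105 and 223 shallower cells were left out. Without thinning these were 61.8% and 34.3%. Of Kupffer cells, 33.5% (30.7 to 36.3) and 19.2% (17.4 to 21.0) had one, beside 81.9% and 59.0% without thinning. T cells, which carry little of it, had 2.49% (1.99 to 3.08) and 1.38% (1.03 to 1.83), with median depths of 2705 and 3587 UMIs before thinning, beside 7493 and 4923 in macrophages. The share of phagocytes with *Abca1* was therefore far above that in T cells and lower in the anti–PD-1 library. *Mylip* was found in 8.85% (7.88 to 9.90) and 5.46% (4.28 to 6.86) of macrophages and in 11.2% (8.51 to 14.3) and 5.87% (4.17 to 8) of NK cells, beside 39.8% and 21.3%, and 20.4% and 16.9%, without thinning. *Insig1* was found in 1.44% (1.06 to 1.90) and 2.54% (2.05 to 3.12) of T cells, and in 0.956% (0.438 to 1.81) and 3.05% (2.28 to 3.99) of B cells. Without thinning these were 4.25% and 9.86%, and 2.49% and 8.14%. *Nr1h3* was found in 27.8% (25.1 to 30.5) and 28.7% (26.6 to 30.7) of Kupffer cells, and in 69.2% and 63.2% without thinning. In tumor cells and BECs it was in 0.256% (0.0529 to 0.747) and 3.55% (2.27 to 5.29), on 3 of 1170 and 23 of 647 cells. The PBS share there thus rests on 3 cells of 1 random thinning. Unthinned, these shares were 3.85% and 6.37%, which lie closer together. T cells had it in 0.630% and 1.02% after thinning. Whether fewer cells transcribed *Abca1* or each held less of it cannot be told apart from these shares.

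**Figure D5:**
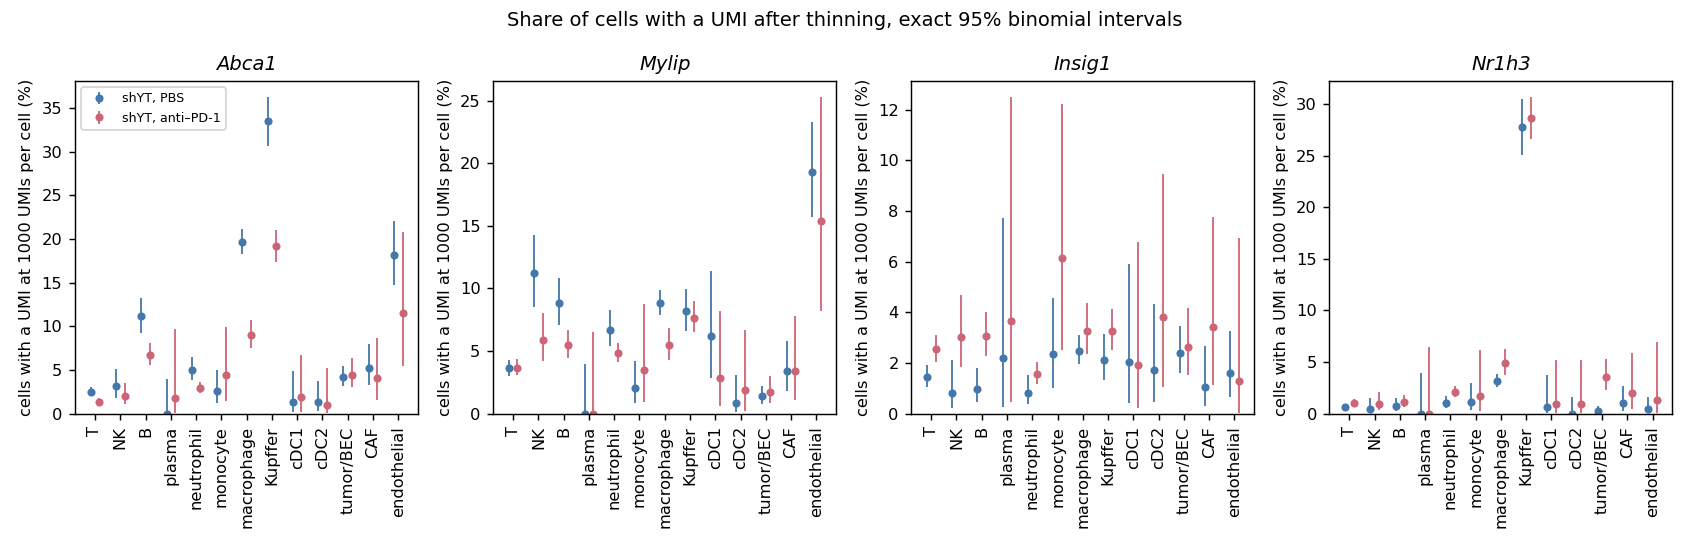
Share of cells with at least 1 UMI of *Abca1*, *Mylip*, *Insig1* and *Nr1h3* (y axis, percent) in 13 cell classes (x axis) once each cell was thinned to 1000 UMIs, with blue for PBS, red for anti–PD-1 and bars for exact 95% binomial intervals. The *Abca1* share lies at 33.5% and 19.2% in Kupffer cells and at 19.7% and 9.03% in macrophages, while the *Nr1h3* share of Kupffer cells lies at 27.8% and 28.7%.

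Over the 26 sums of 13 classes in 2 libraries, the genes with the most similar profile to *Abca1* among those with a mean of at least 20 CPM were *Ptgs1* (a prostaglandin synthase, Pearson r = 0.914 of log2 levels), *Mertk* (a receptor for dying cells, 0.889) and *Lgmn* (a lysosomal protease, 0.879). Those most like *Hmgcs1* were *Eif3l* (0.897), *Msmo1* (another sterol synthesis enzyme, 0.877) and *Ndufa6* (0.877). Among the 8 genes, r was 0.854 for *Abcg1* and *Mylip*, 0.775 for *Abca1* and *Abcg1*, 0.736 for *Abca1* and *Mylip*, and 0.662 for *Abca1* and *Nr1h3*. It was 0.703 for *Hmgcs1* and *Sqle*, 0.441 for *Hmgcs1* and *Srebf2*, and 0.321 for *Hmgcs1* and *Insig1*. These points share libraries and, through free RNA, part of their UMIs, and describe class profiles only.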

How the data were processed

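Tumor-bearing livers were digested, and dead cells removed, before library preparation with the Singleron GEXSCOPE kit. The authors counted reads with Cell Scope (Singleron) against mm10 and deposited raw UMI counts per gene and barcode. Seurat 4.3 is named in the submitters' processing notes. The Cell Scope version, annotation and strand setting are not given in the sources used here. Groups came from the sample labels. The genes and lists were chosen with earlier results of these data known.

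Cells took the class, of 19 with fixed markers, with the largest share of its markers carrying a UMI once a minimum number was met. Ties were left out, and cells meeting the Kupffer cell minimum were not counted as macrophages or monocytes. Doublets were not removed. UMIs were summed by library and class and scaled to CPM, and log2 ratios took 5 CPM added to both. The named genes were the 8 genes, the genes of each list with the largest absolute ratios (4 in macrophages, 2 in T cells and 2 in tumor cells and BECs), and the 3 most similar profiles to *Hmgcs1* and *Abca1*. The analysis used numpy 2.4.6, scipy 1.17.1 and pandas 2.3.3, and was tested on simulated data. Gene symbols occurring more than once were read as their first entry. Some genes that the rule names are not reported here. The alternatives are given at the end.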

Additional observations from a re-analysis of the deposited data

Results flagged for a closer look

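The following differences between the libraries went opposite ways in 2 cell classes, with counting intervals that excluded 0 in each. None of these contrasts between classes was tested, because each rests on 1 library per group. *Hmgcs1* had a log2 ratio of anti–PD-1 over PBS of 0.21 in T cells and −1.05 in cDC1. At equal depth, 2.07% and 2.01% of T cells had an *Hmgcs1* UMI. *Sqle* was at 0.64 in B cells, on only 16 UMIs in PBS, and −1.24 in cDC1. *Srebf2* was at 0.94 in plasma cells and −0.32 in tumor cells and BECs. In cDC1, 1 PBS cell held 22 of the 52 *Hmgcs1* UMIs and 1 held 9 of the 28 *Sqle* UMIs, so the counting intervals there are too narrow.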

How the results depend on the processing

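No paired analysis was possible because each group is 1 library. Low counts limit several of the 8 genes in the smaller classes, down to 1 UMI of *Nr1h3* in PBS plasma cells. They also limit the cells chosen by Y-linked UMIs, T cells among them. Animals, sex, dissociation and treatment cannot be told apart. All values are log2 ratios, the alternatives changed 1 choice each, and the cause of each shift was not tested. Among the 8 genes in macrophages, T cells and tumor cells with BECs, 1 difference passed 2-fold, *Nr1h3* in the last. It ran from 0.80 to 1.36 over 8 of the alternatives, and the call was lost in 3 of them. A mitochondrial limit of 20%, and leaving out shared barcodes (added after seeing the data), moved none of these values beyond their counting intervals.

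Among cells that had Y-linked UMIs but none of *Xist*, macrophages moved to −0.70 for *Abca1*, 0.02 for *Nr1h3* and 0.30 for *Sqle*. T cells moved to 0.64 for *Hmgcs1*, 1.1 for *Insig1*, 1.31 for *Nr1h3* and 0.48 for *Sqle*. These T cell values rest on 16, 11, 2 and 8 UMIs in PBS, in that order. Tumor cells and BECs moved to 0.74 for *Abca1*, 0.33 for *Hmgcs1* and 0.62 for *Insig1*, on 21, 32 and 11 UMIs in PBS. With cells passing only 1 gate, *Abcg1* was −0.36 in macrophages and 0.52 in tumor cells and BECs, *Hmgcs1* 0.42, *Mylip* 0.02 and *Srebf2* 0.15 in T cells, and *Mylip* 0.50 and *Sqle* −0.69 in tumor cells and BECs. With each cell weighted alike, *Hmgcs1* was 0.15 and *Nr1h3* 0.38 in macrophages, *Nr1h3* 0.90 in T cells and *Sqle* −0.60 in tumor cells and BECs. With 200 or more detected genes, *Abca1* was 0.37 and *Hmgcs1* −0.02 in tumor cells and BECs. A pseudocount of 1 CPM put *Nr1h3* at 0.84 in T cells. With 1 marker more, *Abca1* was −0.69 in macrophages. Median-of-ratios scaling gave −0.71 for *Abca1* and 0.22 for the median of the sterol synthesis list in macrophages. In macrophages with a *Trem2* UMI, *Abca1* was −0.56 and *Srebf2* 0.06, and without one *Hmgcs1* was −0.51, *Insig1* −0.14, *Mylip* −0.23, *Nr1h3* 0.51, *Sqle* −0.54 and *Srebf2* −0.14, a division added after seeing the data. Of the other values, in further classes, lists and genes, 28 moved and 61 did not among the cells with Y-linked UMIs, and 21 moved and 81 did not with cells passing only 1 gate.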
